A study of Mus musculus with 24 samples.

Results

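Liver RNA of fed mice that make only the P2 isoforms of hepatocyte nuclear factor 4α (HNF4α) was compared with liver RNA of wild-type (WT) mice, both killed at 10:30, which is 3.5 h after lights on (ZT 3.5). The 6 libraries were taken by the genotype and harvest time in their sample labels, 3 α7HMZ and 3 WT, out of 24 libraries in the series. α7HMZ mice are homozygous for an exon swap at the Hnf4a gene that leaves only the P2 products, and the allele was carried in every cell of the body and from conception, so that what the liver itself changed and what followed from other organs cannot be told apart. All mice were males of a mixed 129/Sv and C57BL/6 background, 16 to 20 weeks old, and had food at all times. Livers from both genotypes were also collected fed at 13:30 and 20:30 and, not used here, after a 12 h fast at 10:30. The comparison asked what the P2-only liver changed in the morning and did not change, or changed otherwise, at the other fed times. Each group held 3 mice, every time point used different mice, and p-values measure the spread between mice.

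HNF4α is a nuclear receptor that keeps hepatocytes differentiated: it binds the promoters and enhancers of genes for lipoproteins, clotting factors, bile acid and drug metabolism. Its gene has promoters named P1 and P2, and the adult liver uses P1 while the fetal liver and many liver tumours also use P2. The products differ at the amino terminus, where the P1 forms carry an activation domain that the P2 forms lack. Much of liver metabolism also follows the circadian clock, in which BMAL1 (Arntl) and CLOCK drive the genes of their own repressors.

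Hnf4a RNA, counted over the whole gene and therefore blind to which promoter was used, stood at 719, 694 and 821 CPM in WT and 847, 1193 and 1041 CPM in α7HMZ liver. The values did not overlap, with the α7HMZ libraries higher, but the log2 fold change of 0.46 (standard error 0.17, adjusted p = 0.0615) did not pass the test. It passed with DESeq2 (0.45, adjusted p = 0.0403), without the 4 fed libraries highest in Rn45s or in the cholangiocyte and pancreatic genes Krt19 and Ctrb1 (0.56, adjusted p = 0.00566), and with GC or transcript length offsets (0.83 and 0.86, adjusted p = 0.000947 and 0.000544). The differences at the other fed times were -0.20 at 13:30 (adjusted p = 0.528) and 0.50 at 20:30 (adjusted p = 0.0428). The gene cannot check the isoform swap in these counts, because a count per gene sums the P1 and P2 transcripts. The annotation gives 2 start sites on chromosome 2, at 163506857 and 163547155, 40298 bases apart, and the 250 bases before each are shown because these are the P1 and P2 promoters for which the isoforms are named. Sequences are RefSeq's, build GRCm38.p6, written 5′ to 3′ along the gene; capitals mark matches to the HNF1 half-site GTTAAT or its reverse complement ATTAAC, and the 2 matches in the downstream window lie at -81 and -74 from the start.
Hnf4a upstream start (P2), chr2:163506607-163506856, plus strand: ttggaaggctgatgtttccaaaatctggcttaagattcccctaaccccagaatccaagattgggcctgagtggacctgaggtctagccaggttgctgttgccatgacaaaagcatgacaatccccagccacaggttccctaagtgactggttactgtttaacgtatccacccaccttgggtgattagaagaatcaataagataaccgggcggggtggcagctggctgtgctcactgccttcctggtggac
Hnf4a downstream start (P1), chr2:163546905-163547154, plus strand: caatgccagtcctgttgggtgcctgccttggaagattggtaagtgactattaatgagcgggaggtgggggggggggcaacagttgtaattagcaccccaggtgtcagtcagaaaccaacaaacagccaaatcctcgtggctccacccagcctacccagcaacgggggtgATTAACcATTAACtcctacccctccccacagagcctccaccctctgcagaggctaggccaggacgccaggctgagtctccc
Of all 32851 promoter windows of this length, 6.43% held the half-site on either strand, so a match is a description of the letters only. Only exact matches were marked, so a window without capitals can still hold a site that differs by a letter.

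Levels are given as CPM, the count of a gene scaled to the size of its library with TMM factors, after the Rn45s row was removed. Library depth after that step was 12953064 to 23120984 counts in WT and 10644727 to 17096723 counts in α7HMZ at 10:30. Rn45s, the ribosomal RNA precursor, took 50.8% of the counts of α7HMZ replicate 1 at 10:30 and at most 0.41% of the other 5, so results that rest on that library are also given without it. Log2 CPM correlated at 0.991 to 0.993 among WT libraries, at 0.970 to 0.980 among α7HMZ libraries and at 0.953 to 0.965 between genotypes, so the α7HMZ libraries varied more among themselves. Summed hepatocyte markers, such as albumin and transthyretin, were abundant in every library, at 149236 to 182346 CPM in WT and 122209 to 144534 CPM in α7HMZ, which did not overlap. The table held 11 of the 12 hepatocyte markers listed. Sums were also lower in α7HMZ liver for sinusoidal endothelium (738 to 831 against 546 to 722 CPM, 15 markers) and stellate cells (417 to 534 against 307 to 416 CPM, 15 markers) and red cells (158 to 173 against 69.2 to 79.6 CPM, 7 markers in the table, of which 4 were at 0), while cholangiocyte markers were higher (149 to 172 against 180 to 223 CPM, 14 markers). The 4 red cell markers at 0 were haemoglobin genes, and only 1 red cell marker, Alas2, had enough counts to be tested (log2 fold change -1.20). The red cell sum thus rests on few genes and says little about red cells. Kupffer cell markers overlapped at 569 to 740.3 CPM in WT and 628 to 722 CPM in α7HMZ, and 10 of 15 pancreatic acinar markers were at 0 in all 6 libraries. In bulk liver RNA, fewer cells of a type and less RNA per cell cannot be told apart, and the part of these marker differences in the results below was not tested.

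At 10:30, 1121 of 13240 genes tested were higher in α7HMZ liver (8.47%) and 1200 were lower (9.06%) at an adjusted p under 0.05 in edgeR's quasi-likelihood test with Benjamini-Hochberg adjustment. The median size of a called difference was 0.65 on the log2 scale, and 260 of these genes were over 2-fold higher and 374 over 2-fold lower. The values of the 3 α7HMZ mice lay above all WT values for 2246 of all genes tested (17%) and below them for 2155 (16.3%). Among called genes this held for 1054 of the 1121 higher and 1159 of the 1200 lower. Some genes below were also picked by this trait. A lack of overlap therefore describes the values of the single genes below and adds no support to their calls. At 13:30 the same test called 6.25% of genes higher and 6.65% lower, and at 20:30 it called 8.41% higher and 10.9% lower. Of the 1121 genes higher at 10:30, 292 were also higher at 13:30 and 269 at 20:30. Of the 1200 genes lower at 10:30, 513 were also lower at 13:30 and 563 at 20:30. Being called at 10:30 and at no other time does not show that a difference depends on time, so the difference itself was tested: the genotype difference at 10:30 minus the mean of those at 13:30 and 20:30. It was positive for 379 genes (2.86%) and negative for 364 (2.75%), 5.61% in all. This contrast is called the time difference of a gene. A gene was taken as particular to 10:30 when it passed both tests in the same direction. This held for 237 genes higher in α7HMZ liver (1.79%) and 217 lower (1.64%), or 3.43% of the genes tested. Among the 746 genes that were higher at 10:30 and at neither other time, 233 passed the test of the difference, and among 536 such lower genes, 184 did.

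The time difference is set against the mean of the other fed times, so a gene particular to 10:30 need not differ from each of them. Of the 237 higher genes, 86 passed against 13:30 alone, 158 against 20:30 alone and 46 against both. Of the 217 lower genes, 82 passed against 13:30 alone, 151 against 20:30 alone and 49 against both. Among those given below with their values, 8 of 17 higher genes (Alas1, Foxa3, Gar1, Jun, Pfkfb3, Plin4, Rrs1 and Usp2) and 7 of 14 lower genes (Acly, Bcl6, Cldn1, F5, Pygl, Rab36 and Tnfaip2) passed against both, and for the rest the time that did not pass is named.

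**Figure D1:**
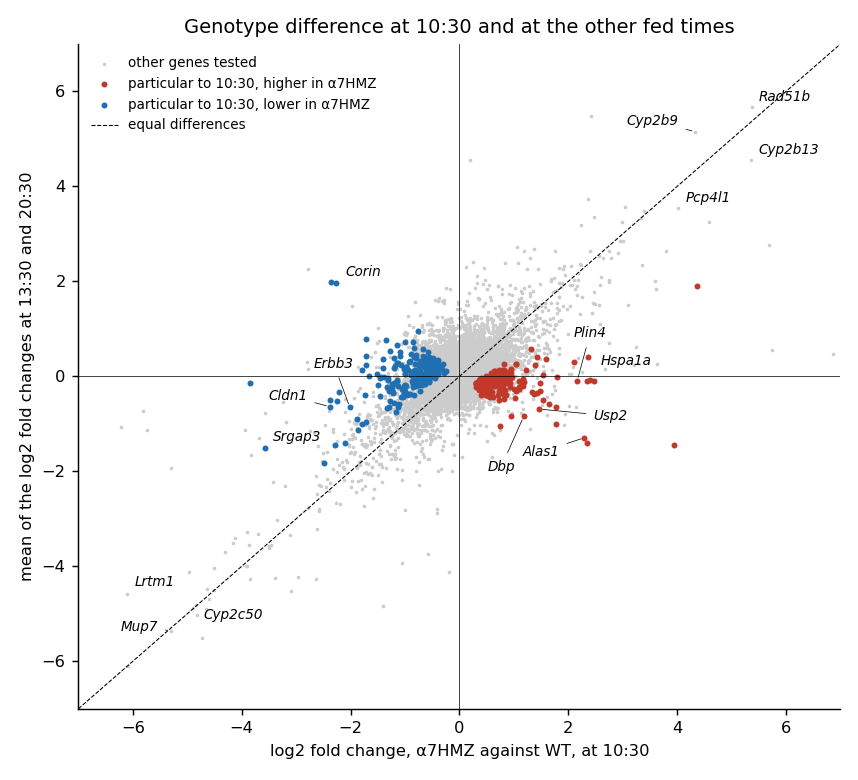
Each point is 1 of the 13240 genes tested, with the log2 fold change of α7HMZ against WT at 10:30 on the x axis and the mean of the log2 fold changes at 13:30 and 20:30 on the y axis. The 237 genes particular to 10:30 and higher (red) and the 217 lower (blue) sit away from the dashed line of equal differences, while genes such as Rad51b, Cyp2b13, Mup7 and Cyp2c50 lie near it.

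The count of genes particular to 10:30 moved with single libraries. Without α7HMZ replicate 1 of 10:30 there were 589 higher and 555 lower among 13430 genes tested (4.39% and 4.13%), a fit in which 9.33% of all genes were higher and 10.7% lower at 10:30, and leaving out any of the other 5 libraries of 10:30 left 28 to 117 higher and 33 to 134 lower. Both calls remained in all 18 fits that each left out 1 library for 45 genes, 21 higher and 24 lower, and the genes described below are led by these. They include the chaperones Hspa1a, Hspa1b and Dnajb1, the clock output genes Alas1, Usp2 and Pfkfb3, and the metabolic genes Acly, Cps1 and Pygl. The call of Cps1 at 10:30 did not remain with GC or length offsets.

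For the genes particular to 10:30, the WT group was the one at the edge of the fed range. Of the 237 higher in α7HMZ liver, 229 (96.6%) had their lowest of the 6 fed group means in WT liver at 10:30, and 55 (23.2%) had their highest in α7HMZ liver at 10:30. Of the 217 lower genes, 184 (84.8%) had their highest group mean in WT liver at 10:30 and 73 (33.6%) their lowest in α7HMZ liver at 10:30. Among all genes called higher or lower at 10:30, the WT group at 10:30 was the extreme in 73.7% and 62% and the α7HMZ group in 35.4% and 33.4%. These shares are a description, since the same values made the calls. The 10:30 libraries of both genotypes were run on another flow cell than those of 13:30 and 20:30, so a level at 10:30 against a level at another time cannot be told apart from the flow cell, whereas each genotype difference lies within 1 flow cell.

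The median transcript length of the genes particular to 10:30 was 2663 bases for those higher in α7HMZ liver and 4523 for those lower, against 3329 bases over all genes tested. Across genes, which are not independent replicates, length and the log2 fold change had a Spearman correlation of -0.10 at 10:30, 0.03 at 13:30 and 0.37 at 20:30, and length and the time difference had one of -0.30. Against the WT mean at 10:30 the 3 α7HMZ libraries differed among themselves in this, at 0.14, -0.02 and -0.32 for replicates 1 to 3 in turn. In a refit with length offsets, 151 of the 237 higher genes (63.7%) and 154 of the 217 lower genes (71%) remained particular to 10:30, and values from it are given where they change a result. The part of length-dependent recovery of RNA in the results was not tested otherwise.

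**Figure D2:**
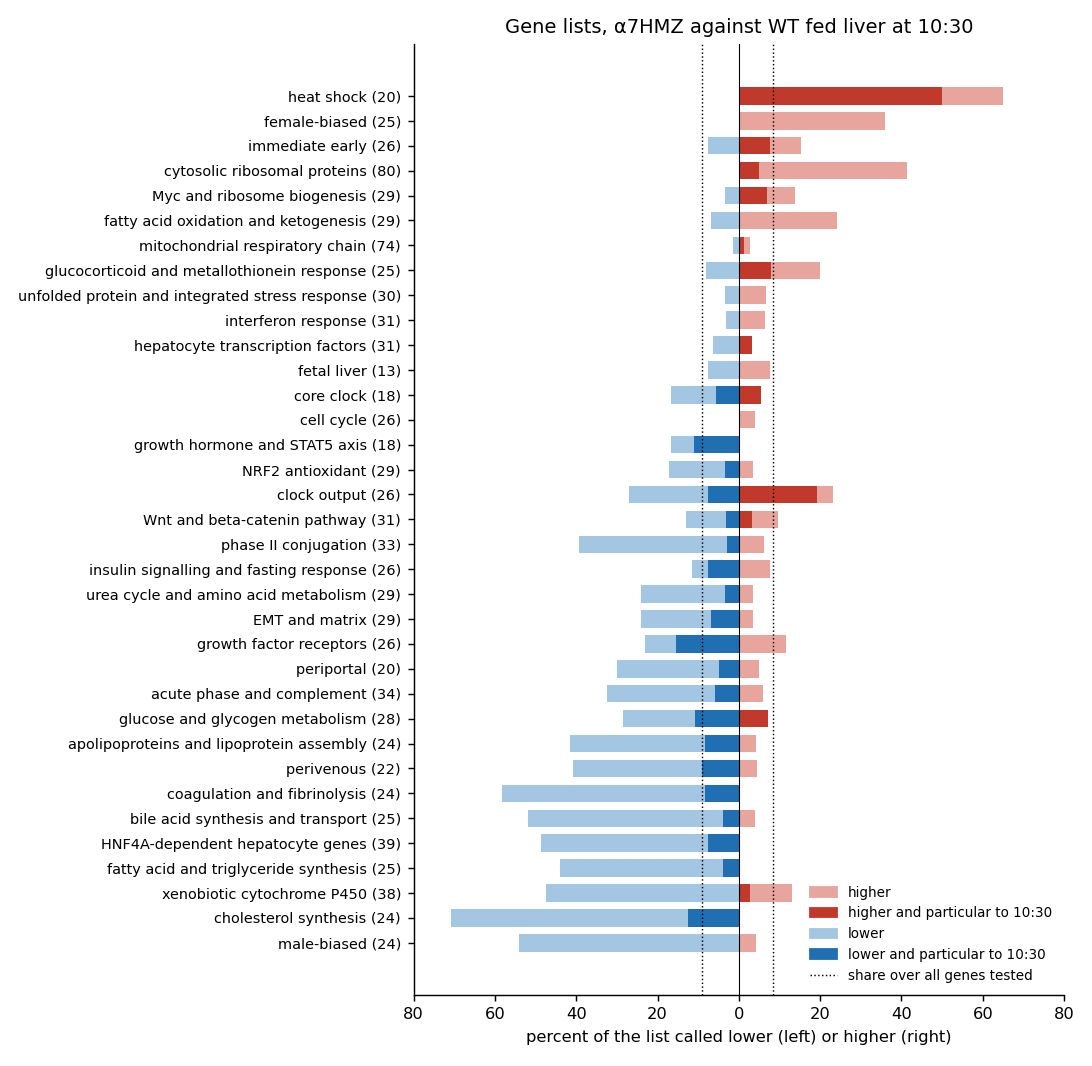
Bars give, for each of 35 gene lists with the number of genes tested in parentheses, the percent of genes higher (red, to the right) or lower (blue, to the left) in α7HMZ liver at 10:30, with the genes particular to 10:30 in the darker shade. Heat shock has 13 of 20 genes to the right and cytosolic ribosomal proteins have 33 of 80, beside 8.47% of all genes. Cholesterol synthesis has 17 of 24 to the left, beside 9.06% of all genes.

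Heat shock genes were higher in α7HMZ liver in the morning. These genes encode the chaperones that refold damaged proteins and are switched on by heat shock factors. Of 20 tested, 13 were higher and none lower at 10:30, against 8.47% and 9.06% of all genes, with a median log2 fold change of 0.66 beside 0.04 over all genes. Of the 13, 10 were particular to 10:30, beside 1.79% of all genes. At 13:30 the same list had 6 genes lower (beside 6.65% of all genes), none higher and a median of -0.35. At 20:30 it had 3 higher (beside 8.41%), none lower and a median of 0.08. Of those 10 genes, 9 passed against 13:30 alone and 1, Hspe1, against 20:30 alone, so for the 9 the call rests on the contrast with 13:30. Without α7HMZ replicate 1 of 10:30, 15 were higher and 14 of them particular to 10:30, in a fit where 9.33% of all genes were higher and 4.39% particular and higher. With the replicate number as a block, 12 were higher and 7 particular, beside 7.57% and 1.44% of all genes. In a test against a change of 1.2-fold, 8 remained higher and 3 of them particular to 10:30, beside 3.01% and 0.144%.

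The 250 bases before the start of 3 heat shock genes are shown because they hold matches to the element that heat shock factors bind. Capitals mark matches, on either strand, to GAANNTTC or TTCNNGAA, in which overlapping matches were counted apart. The matches lie at -104 from the start in Hspa1a, at -33 in Hsph1, and at -117 and -97 in Hspb1.
Hspa1a, chr17:34972157-34972406, minus strand: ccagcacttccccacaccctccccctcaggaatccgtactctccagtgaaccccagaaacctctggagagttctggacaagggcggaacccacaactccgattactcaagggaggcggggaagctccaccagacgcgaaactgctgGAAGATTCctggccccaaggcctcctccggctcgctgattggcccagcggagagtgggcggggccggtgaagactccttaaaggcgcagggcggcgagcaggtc
Hsph1, chr5:149636337-149636586, minus strand: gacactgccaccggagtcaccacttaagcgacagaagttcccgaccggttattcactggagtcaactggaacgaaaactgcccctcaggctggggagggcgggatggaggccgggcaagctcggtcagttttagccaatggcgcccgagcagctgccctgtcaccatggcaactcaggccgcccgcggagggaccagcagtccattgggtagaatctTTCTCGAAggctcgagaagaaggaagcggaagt
Hspb1, chr5:135887669-135887918, plus strand: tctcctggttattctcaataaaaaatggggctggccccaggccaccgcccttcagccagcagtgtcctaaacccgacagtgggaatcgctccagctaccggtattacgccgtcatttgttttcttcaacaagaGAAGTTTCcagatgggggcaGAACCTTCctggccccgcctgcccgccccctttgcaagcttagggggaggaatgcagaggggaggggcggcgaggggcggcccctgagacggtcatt
The motif was in 12.8% of all 32851 windows and in a window of 9 of the 16 heat shock genes that had one (56.2%). Among the genes particular to 10:30 it was in a window of 24 of 186 higher genes that had one (12.9%) and 24 of 168 lower genes (14.3%), beside 12.4% of tested genes, and these shares were not tested. The windows of Hspa1a and Hspa1b were equal at 247 of 250 bases, and neither window of Dnajb1 held a match.

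Hspa1a, an inducible HSP70, stood at 3.26, 3.33 and 3.39 CPM in WT and 9.71, 27.5 and 15.3 CPM in α7HMZ liver. All 3 α7HMZ values lay above all WT values, with replicate 2 the highest, and the log2 fold change was 2.40 (standard error 0.35, adjusted p = 0.000112). The genotype difference was -1.26 at 13:30 (adjusted p = 0.0139) and 1.12 at 20:30 (adjusted p = 0.031), and the time difference was 2.47 (standard error 0.42, adjusted p = 0.0086). Against 20:30 alone it was 1.28 and did not pass (adjusted p = 0.113). Its neighbour Hspa1b, on chromosome 17, followed at 6.61, 9.78 and 6.27 CPM in WT and 19.3, 58.9 and 37.7 CPM in α7HMZ liver. Hspa1b changed by 2.35 (standard error 0.37, adjusted p = 0.00021) on the log2 scale, and the time difference was 2.45 (standard error 0.44, adjusted p = 0.0111), or 1.26 against 20:30 alone, which did not pass (adjusted p = 0.13). The transcripts are near-identical and the counting of shared reads could move values from 1 gene to the other, so they are best read as a pair.

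Hsph1, an HSP110 that exchanges nucleotide on HSP70, stood at 40.6, 33.0 and 37.2 CPM in WT and 46.8, 159 and 103 CPM in α7HMZ liver. The groups did not overlap, replicate 1 of the α7HMZ mice lay closest to WT, and the log2 fold change was 1.48 (standard error 0.33, adjusted p = 0.00456). The time difference of 1.62 (standard error 0.40, adjusted p = 0.0262) was lost without any of the WT replicates or without α7HMZ replicate 2 or 3 of 10:30 (adjusted p up to 0.0896), and it did not pass against 20:30 alone (adjusted p = 0.266). Dnajb1, an HSP40 co-chaperone, stood at 22.4, 21.0 and 21.8 CPM in WT and 27.7, 40.9 and 39.8 CPM in α7HMZ liver, without overlap. The log2 fold change of Dnajb1 was 0.74 (standard error 0.18, adjusted p = 0.00748) at 10:30 and -0.92 (adjusted p = 0.00132) in the other direction at 13:30, and the time difference was 1.24 (standard error 0.21, adjusted p = 0.0092), which did not pass against 20:30 alone (adjusted p = 0.0522). Hspb1, the small heat shock protein HSP27, stood at 8.48, 8.89 and 7.88 CPM in WT and 12.6, 23.2 and 25.4 CPM in α7HMZ liver. It was higher at 10:30 by 1.29 (standard error 0.30, adjusted p = 0.00579), and its time difference of 1.18 (standard error 0.35, adjusted p = 0.0562) did not pass.

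**Figure D3:**
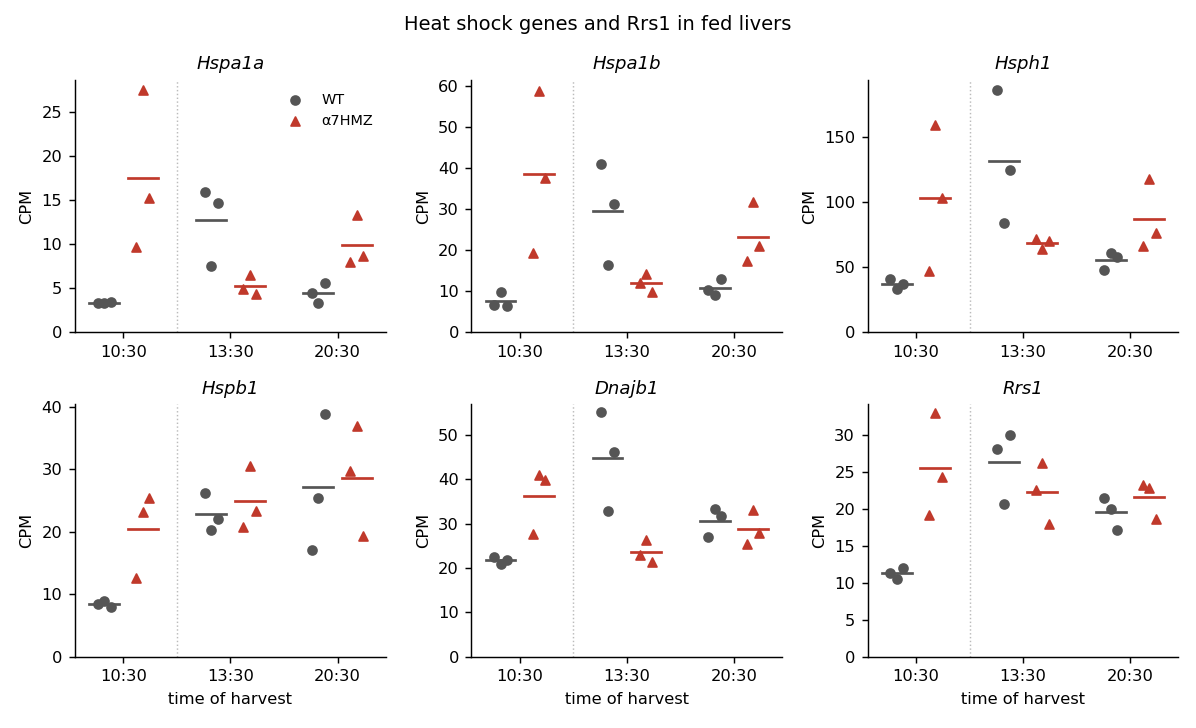
Points are the CPM of single fed livers at 10:30, 13:30 and 20:30 (WT grey circles, α7HMZ red triangles, 3 mice each), and bars are group means; the dotted line separates the flow cells. At 10:30 the α7HMZ values of all 6 genes shown lie above the WT values, as for Hspa1a with 9.71 to 27.5 against 3.26 to 3.39 CPM.

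Of the core clock genes, Dbp was higher and Arntl and Nfil3 were lower in α7HMZ liver at 10:30. None of the 18 tested was called at 13:30, beside 12.9% of all genes. At 20:30, 3 were higher and 3 lower, beside 8.41% and 10.9% of all genes.

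Arntl, which encodes BMAL1, stood at 23.8, 25.6 and 26.2 CPM in WT and 9.90, 9.11 and 18.2 CPM in α7HMZ liver. The α7HMZ values were lower without overlap, replicate 3 lay closest to WT, and the log2 fold change was -1.003 (standard error 0.28, adjusted p = 0.0181). The call of Arntl at 10:30 was lost without WT replicate 2 or 3 or without α7HMZ replicate 1 or 2 of 10:30 (adjusted p up to 0.0854). At the other times the difference was -0.90 at 13:30 (adjusted p = 0.155) and 1.28 at 20:30 (adjusted p = 0.00527), so it turned to higher in the evening, but the difference of 10:30 from the mean of the other times, -1.19 (standard error 0.37, adjusted p = 0.0626), did not pass. Nfil3, a repressor of the same D-box sites that DBP activates, stood at 39.8, 34.7 and 23.3 CPM in WT and 21.1, 20.0 and 23.0 CPM in α7HMZ liver, with all α7HMZ values below all WT values. For Nfil3 the log2 fold change was -0.62 (standard error 0.20, adjusted p = 0.0361), and the call was lost without WT replicate 1 or 2 or without any of the α7HMZ replicates of 10:30 (adjusted p up to 0.185).

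Dbp, a direct target of BMAL1 and CLOCK, stood at 4.84, 7.74 and 7.03 CPM in WT and 3.94, 17.1 and 22.1 CPM in α7HMZ liver. The groups overlapped, since α7HMZ replicate 1 lay below every WT value and the others lay above. The log2 fold change of Dbp was 1.18 (standard error 0.37, adjusted p = 0.0365) at 10:30 and -1.69 (adjusted p = 0.00381) at 20:30, and the time difference was 2.02 (standard error 0.45, adjusted p = 0.0198), which did not pass against 13:30 alone (adjusted p = 0.202). Leaving out WT replicate 1 or 2 or α7HMZ replicate 2 or 3 of 10:30 ended both calls of Dbp, and leaving out WT replicate 3 ended that at 10:30 (adjusted p up to 0.259 at 10:30 and 0.0694 for the difference). At 10:30 Dbp also missed the threshold with DESeq2 (adjusted p = 0.0505) and with GC offsets (adjusted p = 0.0761).

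Clock output genes, whose rhythm follows the clock or feeding, moved in both directions. Of 26 tested, 6 were higher (Usp2, Wee1, Por, Fkbp5, Pfkfb3 and Alas1) and 7 lower at 10:30, beside 8.47% and 9.06% of all genes. Of these, 5 of the higher and 2 of the lower (Ppp1r3c and Tars) were particular to 10:30, beside 1.79% and 1.64% of all genes. At 13:30 there were 2 higher and 8 lower genes, beside 6.25% and 6.65% of all genes. At 20:30 there were 3 higher and 4 lower, beside 8.41% and 10.9%. Pfkfb3, the kinase that makes the glycolysis activator fructose 2,6-bisphosphate, is shown with the window before its more downstream start, because it holds the E-box CACGTG that BMAL1 and CLOCK can bind, in capitals, at -53 from the start.
Pfkfb3, chr2:11502091-11502340, minus strand: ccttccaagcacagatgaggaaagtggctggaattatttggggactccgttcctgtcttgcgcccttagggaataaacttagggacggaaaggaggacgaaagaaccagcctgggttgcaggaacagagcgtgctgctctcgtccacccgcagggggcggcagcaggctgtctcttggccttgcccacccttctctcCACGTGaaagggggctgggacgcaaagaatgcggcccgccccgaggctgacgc
The E-box was in 6.02% of all windows, in a window of 6 of 22 clock output genes that had one, and in 12.9% and 14.9% of the higher and lower genes particular to 10:30 with a window, beside 9.81% of tested genes.

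Alas1, the rate-limiting enzyme of haem synthesis, stood at 52.9, 109 and 331 CPM in WT and 406, 1449.9 and 559.8 CPM in α7HMZ liver. The groups did not overlap, though WT replicate 3 lay close to α7HMZ replicate 1, and the spread within each genotype was wide. The Alas1 log2 fold change was 2.30 (standard error 0.51, adjusted p = 0.00416), the differences at the other times were -1.20 at 13:30 (adjusted p = 0.124) and -1.38 at 20:30 (adjusted p = 0.0552), and the time difference was 3.59 (standard error 0.61, adjusted p = 0.0086). Usp2, a rhythmic ubiquitin protease, stood at 2.51, 2.11 and 3.81 CPM in WT and 6.32, 8.01 and 8.27 CPM in α7HMZ liver, without overlap. Usp2 changed by 1.46 (standard error 0.33, adjusted p = 0.00506) on the log2 scale, and its time difference was 2.15 (standard error 0.38, adjusted p = 0.00972). The values at the other times, neither of them called, were -0.72 at 13:30 (adjusted p = 0.0701) and -0.65 at 20:30 (adjusted p = 0.0832).

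Pfkfb3 stood at 15.4, 11.6 and 27.0 CPM in WT and 42.7, 68.3 and 43.9 CPM in α7HMZ liver, and the lowest α7HMZ value lay above the highest WT value. It was higher at 10:30 by a log2 fold change of 1.53 (standard error 0.30, adjusted p = 0.00158), against -0.81 at 13:30 (adjusted p = 0.0686) and -0.19 at 20:30 (adjusted p = 0.694), and the time difference was 2.04 (standard error 0.36, adjusted p = 0.011). Fkbp5, a co-chaperone induced by glucocorticoids, stood at 50.015, 72.9 and 63.5 CPM in WT and 82.7, 127 and 127 CPM in α7HMZ liver, without overlap. For Fkbp5 the log2 fold change was 0.86 (standard error 0.21, adjusted p = 0.00779) at 10:30 and -0.67 (adjusted p = 0.035) at 13:30, with a time difference of 1.25 (standard error 0.25, adjusted p = 0.015), and WT replicate 1 of 10:30 decided both calls (adjusted p = 0.0528 and 0.055 without it). Against 20:30 alone the time difference of Fkbp5 did not pass (adjusted p = 0.0511). Gys2, the liver glycogen synthase and a clock target, was lower at all 3 times, at 134, 128 and 125 CPM in WT and 72.6, 61.1 and 56.8 CPM in α7HMZ liver. The Gys2 log2 fold change was -1.02 (standard error 0.13, adjusted p = 3.64e-05), and the time difference was -0.20 (standard error 0.16, adjusted p = 0.462).

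Mt1, a metallothionein induced by metals and glucocorticoids, stood at 14.8, 24.4 and 73.3 CPM in WT and 89.0, 124 and 135 CPM in α7HMZ liver. The lowest α7HMZ value lay above the highest WT value, of replicate 3, and the other 2 WT values were much lower. Mt1 changed by 1.65 (standard error 0.44, adjusted p = 0.0141) on the log2 scale at 10:30 and -1.25 (adjusted p = 0.0452) at 20:30, and the time difference was 2.23 (standard error 0.53, adjusted p = 0.0242). The call of Mt1 at 10:30 was lost without WT replicate 1 or 2, and that of the difference also without α7HMZ replicate 2 or 3 (adjusted p up to 0.0805 and 0.0822). Against 13:30 alone the time difference of Mt1 did not pass (adjusted p = 0.175). Of the 25 glucocorticoid and metallothionein response genes, 5 were higher and 2 lower at 10:30, beside 8.47% and 9.06% of all genes. Among the higher genes, 2 were particular to 10:30, beside 1.79% of all genes. At 13:30 none was higher and 6 were lower, beside 6.25% and 6.65% of all genes.

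**Figure D4:**
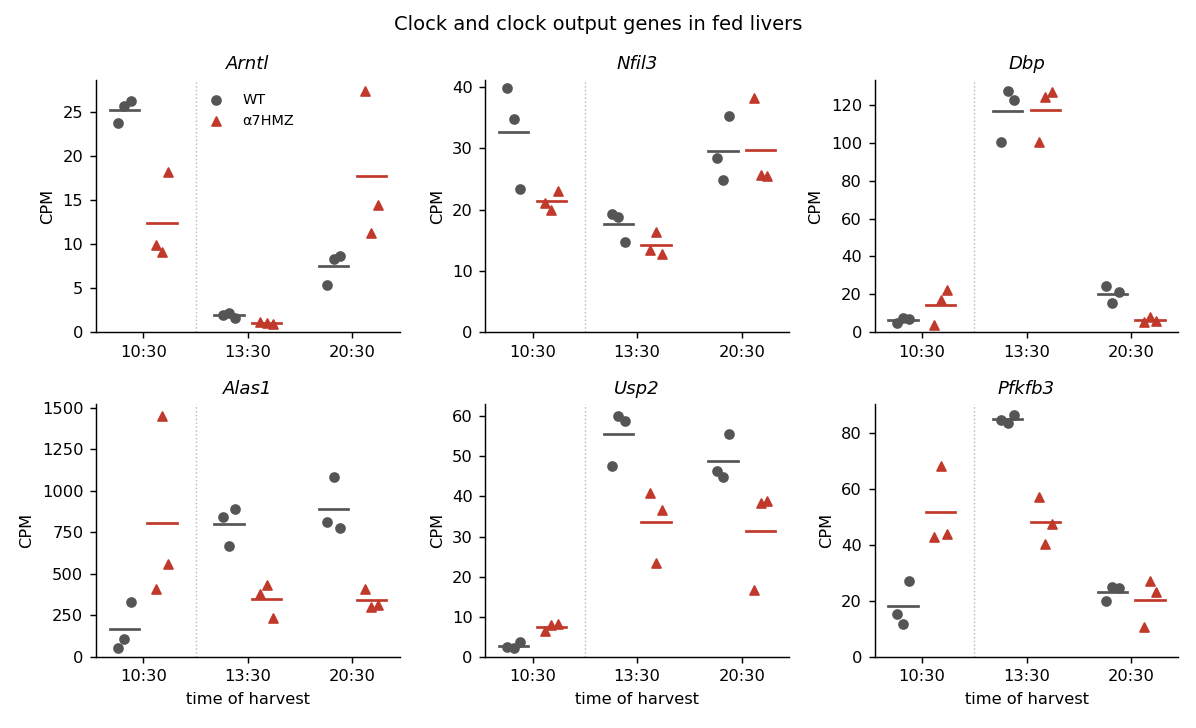
Points are the CPM of single fed livers at 3 times (WT grey circles, α7HMZ red triangles, 3 mice each), bars are group means, and the dotted line separates the flow cells. Arntl was lower in α7HMZ liver at 10:30 (9.11 to 18.2 against 23.8 to 26.2 CPM) while Alas1, Usp2 and Pfkfb3 were higher, and the groups overlap for Dbp.

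Cytosolic ribosomal protein genes were higher as a group at 10:30. All 80 tested had a positive log2 fold change, and the median was 0.37, beside 0.04 over all genes. Of the 80, 33 were higher and none lower, beside 8.47% and 9.06% of all genes. At 13:30, 1 was higher, beside 6.25% of all genes, and the median was 0.18. At 20:30, 6 were lower, beside 10.9% of all genes, with a median of -0.17. Of the 33 genes, 4 (Rpl14, Rpl34, Rplp2 and Rps13) were particular to 10:30, beside 1.79% of all genes. The counts depended on the processing. Without α7HMZ replicate 1 of 10:30, 50 were higher and 28 particular to 10:30, beside 9.33% and 4.39% of all genes in that fit. Without the 4 fed libraries highest in Rn45s, Krt19 or Ctrb1, 49 were higher but 5 particular, beside 9.71% and 2.62%. With GC offsets 69 were higher and 4 particular (beside 10.4% and 2.05%), and with length offsets 67 and 3 (beside 10.9% and 1.65%). The test against 1.2-fold left 5 higher and none particular, beside 3.01% and 0.144%. Rplp2, an acidic stalk protein of the large subunit, stood at 82.0, 88.8 and 70.0 CPM in WT and 122, 146 and 178 CPM in α7HMZ liver, without overlap. For Rplp2 the log2 fold change was 0.89 (standard error 0.16, adjusted p = 0.000826). Its time difference was 0.89 (standard error 0.20, adjusted p = 0.0198), which was lost without any of the WT replicates or without α7HMZ replicate 3 of 10:30 (adjusted p up to 0.0589), which did not pass against 13:30 alone (adjusted p = 0.137) and which was 0.58 with length offsets (adjusted p = 0.0485). Rps9, of the small subunit, stood at 182, 196 and 189 CPM in WT and 238, 274 and 354 CPM in α7HMZ liver. The Rps9 log2 fold change was 0.61 (standard error 0.13, adjusted p = 0.00317), and the time difference was 0.45 (standard error 0.16, adjusted p = 0.0916).

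Of 29 Myc and ribosome biogenesis genes tested, 4 were higher (beside 8.47% of all genes) and 1 lower, 24 had a positive value, and the median was 0.32 at 10:30, -0.22 at 13:30 and -0.12 at 20:30. Without α7HMZ replicate 1 of 10:30, 11 were higher, all particular to 10:30, beside 9.33% and 4.39% of all genes in that fit. Without the 4 libraries highest in Rn45s, Krt19 or Ctrb1, 9 were higher and 6 of them particular, beside 9.71% and 2.62% of all genes. Rrs1, which helps build the large subunit in the nucleolus, stood at 11.4, 10.6 and 12.0 CPM in WT and 19.2, 33.0 and 24.3 CPM in α7HMZ liver, without overlap. Rrs1 changed by 1.17 (standard error 0.19, adjusted p = 0.000316) on the log2 scale, against -0.23 at 13:30 (adjusted p = 0.484) and 0.14 at 20:30 (adjusted p = 0.639), with a time difference of 1.22 (standard error 0.23, adjusted p = 0.0128). Gar1, a protein of the H/ACA particles that guide pseudouridylation of ribosomal RNA and outside that list, stood at 2.24, 2.69 and 2.37 CPM in WT and 5.77, 8.77 and 6.72 CPM in α7HMZ liver, without overlap. For Gar1 the log2 fold change was 1.54 (standard error 0.25, adjusted p = 0.000339), and the time difference was 1.505 (standard error 0.30, adjusted p = 0.015), which was lost without WT replicate 1 of 10:30 (adjusted p = 0.0538). Of 74 mitochondrial respiratory chain genes, 2 were higher and 1 lower at 10:30 (beside 8.47% and 9.06% of all genes), while 22 were lower at 20:30 (beside 10.9%). With GC or length offsets 22 and 23 were higher at 10:30, beside 10.4% and 10.9% of all genes.

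Many HNF4A-dependent hepatocyte genes were lower at each fed time. Of 39 tested, none was higher and 19 were lower at 10:30, against 9.06% of all genes, with a median of -0.42. At 13:30, 1 was higher and 15 lower with a median of -0.35, beside 6.25% and 6.65% of all genes. At 20:30, 1 was higher and 20 lower with a median of -0.44, beside 8.41% and 10.9%. Apob, Mttp and Cps1 were the genes of this list particular to 10:30, beside 1.64% of all genes that were particular and lower. With GC or length offsets the list had 3 genes higher (beside 10.4% or 10.9% of all genes) and 14 lower (beside 8.63% or 9.15%). Its medians were then -0.19 and -0.18. Nr1i3, the xenobiotic receptor CAR, stood at 86.1, 85.5 and 105 CPM in WT and 7.24, 4.89 and 3.73 CPM in α7HMZ liver, with groups far apart. The Nr1i3 log2 fold change was -4.15 (standard error 0.22, adjusted p = 4.39e-10), beside -3.36 at 13:30 (adjusted p = 2.39e-09) and -3.65 at 20:30 (adjusted p = 7.73e-10).

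Cyp8b1, the 12α-hydroxylase that makes cholic acid, stood at 333, 526 and 386 CPM in WT and 53.1, 12.1 and 30.8 CPM in α7HMZ liver, without overlap. Cyp8b1 changed by -3.70 (standard error 0.48, adjusted p = 3.12e-05) on the log2 scale. It was lower at all 3 times (time difference -0.38 (standard error 0.54, adjusted p = 0.702)). The window before its start is shown because it holds the HNF4 core CAAAGTCC, in capitals, at -67 from the start.
Cyp8b1, chr9:121916306-121916555, minus strand: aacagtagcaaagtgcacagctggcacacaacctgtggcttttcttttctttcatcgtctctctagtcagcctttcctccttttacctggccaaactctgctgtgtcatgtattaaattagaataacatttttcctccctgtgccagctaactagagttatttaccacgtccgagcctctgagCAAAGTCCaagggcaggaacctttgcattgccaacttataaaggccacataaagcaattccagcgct
This motif or its reverse complement GGACTTTG was in 1.196% of all windows, in 1.39% of the windows of tested genes, in 3.17% of those of genes lower at 10:30 and in 0.88% of those of genes higher at 10:30. Of the 31 HNF4A-dependent hepatocyte genes with a window, only 1, Cyp8b1 itself, held it (3.23%, beside 1.75% of tested genes). These motif shares were not tested. Slc27a5, the bile acid CoA ligase, was lower at all times too, at 1095, 1150.1 and 1240.0 CPM in WT and 449.9, 436 and 481 CPM in α7HMZ liver and a log2 fold change of -1.35 (standard error 0.10, adjusted p = 4.22e-08). Of 25 bile acid synthesis and transport genes, 1 was higher and 13 lower at 10:30, beside 8.47% and 9.06% of all genes. Among the lower genes 1 was particular to 10:30, beside 1.64% of all genes.

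Apob, the structural protein of very low density lipoprotein, stood at 11154, 9980.4 and 10027 CPM in WT and 5604, 4369 and 3354 CPM in α7HMZ liver. The 3 α7HMZ values lay far below the WT values, and the log2 fold change was -1.23 (standard error 0.17, adjusted p = 5.09e-05). The differences at the other times were -0.57 at 13:30 (adjusted p = 0.0288) and -0.14 at 20:30 (adjusted p = 0.584), and the time difference was -0.87 (standard error 0.20, adjusted p = 0.0235), which was lost without WT replicate 1 or 2 or α7HMZ replicate 2 of 10:30 (adjusted p up to 0.0694) and did not pass against 13:30 alone (adjusted p = 0.132). With length offsets the log2 fold change of Apob was -0.73 (adjusted p = 0.00168) and its time difference -0.48 (adjusted p = 0.116).

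Apoa4, a lipoprotein of intestine and mouse liver, stood at 123, 139 and 76.3 CPM in WT and 7.33, 12.3 and 12.3 CPM in α7HMZ liver, without overlap. For Apoa4 the log2 fold change was -3.40 (standard error 0.36, adjusted p = 2.94e-06) at 10:30, beside -4.22 at 13:30 (adjusted p = 2.72e-07) and -4.27 at 20:30 (adjusted p = 2.01e-07). Cideb, which helps load lipid on lipoproteins, stood at 247, 257 and 254 CPM in WT and 59.8, 62.7 and 69.9 CPM in α7HMZ liver, with little spread in either group, and its log2 fold change was -1.98 (standard error 0.10, adjusted p = 1.64e-10). It too was lower at 13:30 and 20:30 (-2.26 at 13:30 (adjusted p = 3.55e-11) and -2.13 at 20:30 (adjusted p = 8.86e-11)). Of 24 apolipoprotein and lipoprotein assembly genes, 1 was higher and 10 lower at 10:30, beside 8.47% and 9.06% of all genes. Among the lower genes 2 were particular to 10:30, beside 1.64% of all genes.

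Coagulation genes, made and secreted by hepatocytes, had 14 of 24 lower and none higher at 10:30, beside 9.06% and 8.47% of all genes, with a median of -0.40. There were 6 lower at 13:30 and 8 at 20:30, beside 6.65% and 10.9% of all genes. Without α7HMZ replicate 1 of 10:30, 9 were lower, beside 10.7% of all genes in that fit. With GC or length offsets 8 and 9 were lower, beside 8.63% and 9.15%, and the median was -0.09 and -0.07. F5, coagulation factor V, stood at 727, 683 and 755 CPM in WT and 447, 389 and 268 CPM in α7HMZ liver, without overlap. The F5 log2 fold change was -0.97 (standard error 0.13, adjusted p = 4.26e-05). F5 differed little at the other times (-0.22 at 13:30 (adjusted p = 0.317) and -0.17 at 20:30 (adjusted p = 0.393)), and its time difference was -0.78 (standard error 0.16, adjusted p = 0.015), a call that remained in all 18 fits without 1 library. Proz, protein Z, stood at 444, 438 and 443 CPM in WT and 151, 191 and 155 CPM in α7HMZ liver and was lower at all 3 times, with a log2 fold change of -1.41 (standard error 0.13, adjusted p = 5.83e-07) at 10:30. C8a, a complement component, stood at 1053, 1004 and 941 CPM in WT and 345, 469.7 and 401 CPM in α7HMZ liver, without overlap. C8a changed by -1.30 (standard error 0.13, adjusted p = 1.17e-06) on the log2 scale and was lower at the other times too (-0.80 at 13:30 (adjusted p = 0.000277) and -1.03 at 20:30 (adjusted p = 2.06e-05)). Of 34 acute phase and complement genes, 2 were higher and 11 lower at 10:30, beside 8.47% and 9.06% of all genes. With GC or length offsets 5 were lower, beside 8.63% or 9.15% of all genes.

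Cholesterol synthesis genes, targets of SREBP2, were lower as a group. All 24 tested had a negative log2 fold change at 10:30, 17 were lower, beside 9.06% of all genes, and the median was -0.68. There were 11 lower at 13:30 (median -0.68) and 7 at 20:30 (median -0.38), beside 6.65% and 10.9% of all genes. The test against 1.2-fold left 10 and length offsets left 12, beside 4.93% and 9.15% of all genes. Of the 17, 3 were particular to 10:30, Sc5d and Insig1 among them, beside 1.64% of all genes. Sc5d, the sterol C5-desaturase, stood at 595, 743 and 569 CPM in WT and 371, 191 and 242 CPM in α7HMZ liver, without overlap. For Sc5d the log2 fold change was -1.25 (standard error 0.20, adjusted p = 0.000257). The time difference of -1.02 (standard error 0.24, adjusted p = 0.0242) was lost without WT replicate 1 or 2 or α7HMZ replicate 2 or 3 of 10:30 (adjusted p up to 0.0783), against 13:30 alone (adjusted p = 0.141) and with length offsets (adjusted p = 0.0545). Acat2, which makes acetoacetyl-CoA for the pathway, stood at 178, 209 and 194 CPM in WT and 123, 110.2 and 129 CPM in α7HMZ liver. The Acat2 log2 fold change was -0.68 (standard error 0.11, adjusted p = 0.000268), beside -0.50 at 13:30 (adjusted p = 0.00457) and -0.25 at 20:30 (adjusted p = 0.125).

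Among 25 fatty acid and triglyceride synthesis genes, 11 were lower and none higher at 10:30, beside 9.06% and 8.47% of all genes. Acly was the 1 particular to 10:30, beside 1.64% of all genes that were particular and lower. Acly, the ATP citrate lyase that supplies cytosolic acetyl-CoA, stood at 277, 338 and 265 CPM in WT and 145, 105 and 105 CPM in α7HMZ liver. The groups did not overlap, and the log2 fold change was -1.31 (standard error 0.16, adjusted p = 1.26e-05) against -0.21 at 13:30 (adjusted p = 0.462) and 0.07 at 20:30 (adjusted p = 0.785). The time difference was -1.25 (standard error 0.19, adjusted p = 0.00519), and both calls remained in all 18 fits without 1 library. Acss2, which makes acetyl-CoA from acetate, stood at 211, 361 and 266 CPM in WT and 92.4, 81.8 and 92.2 CPM in α7HMZ liver. Acss2 changed by -1.65 (standard error 0.16, adjusted p = 1.17e-06) on the log2 scale, and was lower at all 3 times. The time difference of -0.62 (standard error 0.20, adjusted p = 0.0662) did not pass.

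Fatty acid oxidation genes had 7 of 29 higher and 2 lower at 10:30, beside 8.47% and 9.06% of all genes, with none particular to 10:30. With GC or length offsets 12 or 13 were higher, beside 10.4% and 10.9% of all genes. Cyp4a14, a PPARα target of fatty acid ω-oxidation, stood at 124, 180.3 and 159.6 CPM in WT and 1336, 688 and 777 CPM in α7HMZ liver, with the groups far apart and a log2 fold change of 2.59 (standard error 0.39, adjusted p = 0.000157). It was higher at the other times as well (2.69 at 13:30 (adjusted p = 0.000132) and 1.49 at 20:30 (adjusted p = 0.0107)). Vnn1, a pantetheinase and PPARα target, stood at 13.5, 16.4 and 11.3 CPM in WT and 57.8, 50.011 and 56.5 CPM in α7HMZ liver. For Vnn1 the log2 fold change was 1.99 (standard error 0.28, adjusted p = 8.28e-05), and the time difference of 1.11 (standard error 0.34, adjusted p = 0.0593) did not pass.

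In glucose and glycogen metabolism, 2 of 28 genes were higher and 8 lower at 10:30, beside 8.47% and 9.06% of all genes. Pfkfb3 and Pgam1 were particular to 10:30 upwards and Slc2a2, Pygl and Ppp1r3c downwards, beside 1.79% and 1.64% of all genes. Pygl, the liver glycogen phosphorylase, stood at 575, 555 and 557 CPM in WT and 280.3, 332 and 369 CPM in α7HMZ liver, without overlap. The Pygl log2 fold change was -0.78 (standard error 0.11, adjusted p = 8.11e-05), against -0.15 at 13:30 (adjusted p = 0.453) and -0.02 at 20:30 (adjusted p = 0.922), and the time difference was -0.70 (standard error 0.14, adjusted p = 0.0135). With length offsets its value at 10:30 was -0.51 (adjusted p = 0.00176). Cps1, the first enzyme of the urea cycle, stood at 6063, 6105 and 6135 CPM in WT and 3982, 4933 and 3512 CPM in α7HMZ liver, without overlap. Cps1 changed by -0.56 (standard error 0.13, adjusted p = 0.00698) on the log2 scale. The genotype difference was -0.03 at 13:30 (adjusted p = 0.939) and opposite at 20:30, at 0.50 (adjusted p = 0.0135), and the time difference was -0.80 (standard error 0.16, adjusted p = 0.015), which did not pass against 13:30 alone (adjusted p = 0.132). The call of Cps1 at 10:30 ended with GC or length offsets (-0.08 and -0.03, adjusted p = 0.776 and 0.909), and both calls ended in a fit to all 24 libraries (adjusted p = 0.0663 and 0.0666). Of 29 urea cycle and amino acid genes, 1 was higher and 7 lower at 10:30, beside 8.47% and 9.06% of all genes. With GC or length offsets 6 were higher (beside 10.4% or 10.9% of all genes) and 3 lower (beside 8.63% or 9.15%).

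**Figure D5:**
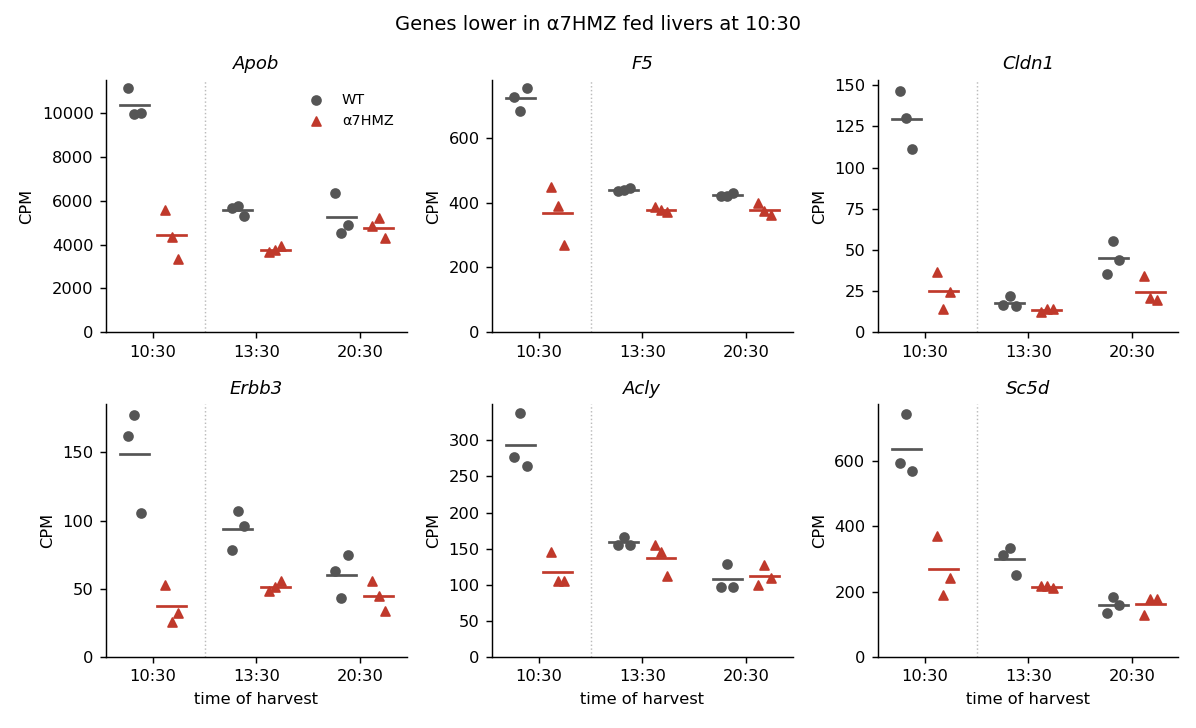
Points are the CPM of single fed livers at 3 times (WT grey circles, α7HMZ red triangles, 3 mice each), bars are group means, and the dotted line separates the flow cells. At 10:30 every α7HMZ value lies below every WT value for all 6 genes, as for Erbb3 with 25.7 to 53.0 against 106 to 178 CPM.

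Growth factor receptors had 3 of 26 genes higher (Fgfr1, Lepr and Src) and 6 lower at 10:30, beside 8.47% and 9.06% of all genes. Of the 6 lower genes, Erbb3, Met, Insr and Igf2r were particular to 10:30, beside 1.64% of all genes. Erbb3, a receptor for neuregulins, stood at 162, 178 and 106 CPM in WT and 53.0, 25.7 and 32.2 CPM in α7HMZ liver, without overlap. For Erbb3 the log2 fold change was -2.01 (standard error 0.26, adjusted p = 2.82e-05). The difference was smaller at the other times (-0.87 at 13:30 (adjusted p = 0.0267) and -0.44 at 20:30 (adjusted p = 0.236)), and the time difference, -1.36 (standard error 0.31, adjusted p = 0.0217), was lost without WT replicate 1 or 2 or α7HMZ replicate 2 or 3 of 10:30 (adjusted p up to 0.0693) and against 13:30 alone (adjusted p = 0.0892). Met, the hepatocyte growth factor receptor, stood at 104, 110.3 and 105 CPM in WT and 77.4, 47.1 and 60.1 CPM in α7HMZ liver. The Met log2 fold change was -0.79 (standard error 0.14, adjusted p = 0.000746). The time difference of -0.81 (standard error 0.17, adjusted p = 0.0177) was lost without WT replicate 1 or 2 of 10:30 (adjusted p up to 0.0562) and against 20:30 alone (adjusted p = 0.0691).

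Lepr, the leptin receptor, was higher at all times and stood at 5.73, 5.56 and 6.27 CPM in WT and 29.2, 32.0 and 22.6 CPM in α7HMZ liver. Lepr changed by 2.25 (standard error 0.33, adjusted p = 0.000124) on the log2 scale. Fgfr1, a fibroblast growth factor receptor, stood at 6.57, 7.10 and 6.86 CPM in WT and 19.3, 25.1 and 18.1 CPM in α7HMZ liver, without overlap. For Fgfr1 the log2 fold change was 1.61 (standard error 0.15, adjusted p = 4.13e-07), beside 1.29 at 13:30 (adjusted p = 4.2e-06) and 0.91 at 20:30 (adjusted p = 0.000281). Src, a tyrosine kinase, stood at 1.58, 1.47 and 1.19 CPM in WT and 2.47, 3.54 and 2.76 CPM in α7HMZ liver. Its values did not overlap, and its log2 fold change was 1.02 (standard error 0.30, adjusted p = 0.0237), a call lost without any of the WT replicates or without α7HMZ replicate 2 or 3 of 10:30 (adjusted p up to 0.0979).

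Of 29 epithelial-mesenchymal transition and matrix genes, 1 was higher (Mmp15) and 7 lower (Cdh1, Cdh2, Snai2, Fn1, Col4a1, Cldn1 and Ocln) at 10:30, beside 8.47% and 9.06% of all genes. Cldn1 and Ocln were particular to 10:30, beside 1.64% of all genes that were particular and lower. Cldn1, a claudin of the tight junctions that seal bile canaliculi, stood at 147, 130.3 and 111 CPM in WT and 36.7, 14 and 24.3 CPM in α7HMZ liver. The groups lay far apart, the log2 fold change was -2.38 (standard error 0.27, adjusted p = 7.82e-06), and the differences at the other times were -0.43 at 13:30 (adjusted p = 0.365) and -0.85 at 20:30 (adjusted p = 0.0328). The time difference was -1.74 (standard error 0.33, adjusted p = 0.0128), and both calls remained in all 18 fits without 1 library. Cdh1, E-cadherin, stood at 28.6, 25.3 and 20.8 CPM in WT and 17.1, 13.1 and 14.1 CPM in α7HMZ liver, without overlap. The Cdh1 log2 fold change was -0.76 (standard error 0.26, adjusted p = 0.0474), which 9 of the 18 fits without 1 library did not call, those without WT replicate 1 or 2 or α7HMZ replicate 2 or 3 of 10:30, without WT replicate 3 or any α7HMZ replicate of 13:30, or without α7HMZ replicate 3 of 20:30 (adjusted p up to 0.16). It also missed the threshold with upper quartile scaling (adjusted p = 0.0545). Ctnnbip1, which blocks β-catenin from TCF, stood at 8.80, 8.18 and 7.54 CPM in WT and 6.32, 4.72 and 5.22 CPM in α7HMZ liver. Ctnnbip1 changed by -0.60 (standard error 0.18, adjusted p = 0.0273) on the log2 scale at 10:30 and -0.91 (adjusted p = 0.00101) at 20:30. Leaving out WT replicate 1 or 2 or α7HMZ replicate 2 or 3 of 10:30 ended its call at 10:30 (adjusted p up to 0.107).

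Among 31 hepatocyte transcription factors, 1 was higher and 2 lower at 10:30, beside 8.47% and 9.06% of all genes. Without α7HMZ replicate 1 of 10:30, 4 were higher and 4 lower, beside 9.33% and 10.7% of all genes. In that fit 3 higher and 3 lower genes of the list were particular to 10:30, beside 4.39% and 4.13% of all genes. Foxa3, a forkhead factor of hepatocyte enhancers, stood at 34.3, 29.4 and 48.1 CPM in WT and 64.2, 106 and 82.2 CPM in α7HMZ liver, without overlap, and its log2 fold change was 1.18 (standard error 0.19, adjusted p = 0.000322) against -0.10 at 13:30 (adjusted p = 0.811) and -0.12 at 20:30 (adjusted p = 0.7). The time difference was 1.29 (standard error 0.23, adjusted p = 0.0113), and Foxa3 kept both calls in all 18 fits without 1 library. Of 26 immediate early genes, 4 were higher (Jun, Jund, Atf3 and Rhob) and 2 lower (Zfp36 and Gadd45a) at 10:30, beside 8.47% and 9.06% of all genes. Jun, an AP-1 subunit, stood at 6.43, 5.44 and 6.69 CPM in WT and 15.8, 15.7 and 10.1 CPM in α7HMZ liver, without overlap. For Jun the log2 fold change was 1.15 (standard error 0.22, adjusted p = 0.00152). The time difference of 1.30 (standard error 0.27, adjusted p = 0.0157) was lost without WT replicate 1 or 2 of 10:30 (adjusted p up to 0.0576). Bcl6, a repressor in the growth hormone axis, was called lower at 10:30 on 1 library: its values were 113, 8.25 and 6.69 CPM in WT and 8.16, 12.4 and 5.22 CPM in α7HMZ liver, so that only WT replicate 1 stood apart, the groups overlapped, and the log2 fold change of -2.36 (standard error 0.79, adjusted p = 0.0468) became positive without that library. Only 6 of the 18 fits without 1 library called Bcl6 at 10:30.

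Outside the lists, the largest differences particular to 10:30 included genes of several functions. Plin4, a lipid droplet coat protein, stood at 4.28, 3.20 and 4.49 CPM in WT and 25.0, 14.1 and 14.8 CPM in α7HMZ liver, without overlap. The Plin4 log2 fold change was 2.16 (standard error 0.33, adjusted p = 0.000172), and the time difference was 2.26 (standard error 0.40, adjusted p = 0.00997). Kbtbd8, a substrate adaptor of a ubiquitin ligase, stood at 1.77, 1.34 and 1.86 CPM in WT and 5.77, 6.16 and 5.40 CPM in α7HMZ liver. Kbtbd8 changed by 1.80 (standard error 0.29, adjusted p = 0.000266) on the log2 scale, and the time difference was 1.82 (standard error 0.34, adjusted p = 0.0128). Plin4 and Kbtbd8 kept both calls in all 18 fits without 1 library, though the time difference of Kbtbd8 was 1.26 against 20:30 alone and did not pass (adjusted p = 0.0593).

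Corin, a serine protease that activates natriuretic peptide, stood at 26.6, 27.2 and 13.5 CPM in WT and 0.183, 6.49 and 6.89 CPM in α7HMZ liver. The groups did not overlap but the spread was wide, from near 0 in α7HMZ replicate 1, and the log2 fold change was -2.27 (standard error 0.65, adjusted p = 0.0215) at 10:30 and 4.66 (adjusted p = 0.0106) in the other direction at 13:30. Its time difference was -4.23 (standard error 0.94, adjusted p = 0.0201), and both calls were lost without WT replicate 1 or 2 of 10:30 (adjusted p up to 0.0687 and 0.0566). Against 20:30 alone the time difference of Corin did not pass (adjusted p = 0.289). Srgap3, a GTPase activating protein, stood at 7.68, 9.40 and 7.20 CPM in WT and 1.01, 0.506 and 0.574 CPM in α7HMZ liver, without overlap. For Srgap3 the log2 fold change was -3.57 (standard error 0.36, adjusted p = 1.64e-06) at 10:30 and -2.12 (adjusted p = 0.000185) at 13:30. The time difference of -2.05 (standard error 0.45, adjusted p = 0.0191) was lost without WT replicate 1 or 2 or α7HMZ replicate 2 or 3 of 10:30 (adjusted p up to 0.0586), against 13:30 alone (adjusted p = 0.13) and without the 4 libraries named above (adjusted p = 0.0567).

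Rab36, a small GTPase of vesicle traffic, stood at 5.91, 5.24 and 5.25 CPM in WT and 2.93, 2.28 and 2.24 CPM in α7HMZ liver. The Rab36 log2 fold change was -1.15 (standard error 0.26, adjusted p = 0.00434), and the time difference was -1.81 (standard error 0.33, adjusted p = 0.0111). Tnfaip2, a TNF-induced protein, stood at 25.7, 20.6 and 19.2 CPM in WT and 9.07, 8.77 and 14.4 CPM in α7HMZ liver, without overlap. It was lower at 10:30 by a log2 fold change of -1.01 (standard error 0.23, adjusted p = 0.00549) and higher at 13:30, at 0.92 (adjusted p = 0.0103), with a time difference of -1.74 (standard error 0.28, adjusted p = 0.00667). Opposite calls of this kind were few: of the genes higher at 10:30, 18 were lower at 13:30 and 28 at 20:30, and of the genes lower at 10:30, 10 were higher at 13:30 and 31 at 20:30.

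The genes given next are among those with the largest differences at 10:30, and none of them passed the test of the time difference. Rad51b, a gene of homologous recombination, stood at 0.373, 0.703 and 0.508 CPM in WT and 19.8, 15.8 and 28.8 CPM in α7HMZ liver, with the groups far apart and a log2 fold change of 5.37 (standard error 0.34, adjusted p = 3.69e-09), beside 6.28 at 13:30 (adjusted p = 9.19e-10) and 5.08 at 20:30 (adjusted p = 1.41e-08). Cyp2b13 and Cyp2b9, female-biased P450 genes with near-identical copies whose reads could be divided between them, stood at 1.12, 0.639 and 0.932 and 20.1, 12.2 and 18.6 CPM in WT and at 41.7, 35.2 and 36.6 and 396, 313 and 319.7 CPM in α7HMZ liver. Their log2 fold changes were 5.36 (standard error 0.40, adjusted p = 3.59e-08) and 4.34 (standard error 0.37, adjusted p = 1.62e-07). Pcp4l1, a small calmodulin-binding protein, stood at 6.80, 4.54 and 6.69 CPM in WT and 109, 73.4 and 109.8 CPM in α7HMZ liver. Pcp4l1 changed by 4.02 (standard error 0.24, adjusted p = 1.87e-09) on the log2 scale.

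Lrtm1, a leucine-rich membrane protein, was the gene named here with the lowest log2 fold change, -6.10 (standard error 0.51, adjusted p = 1.49e-07), from 16.9, 20.4 and 15.8 CPM in WT and 0.458, 0.169 and 0.172 CPM in α7HMZ liver. Mup7, a male-biased major urinary protein in a family of near-identical copies, stood at 5627, 5210.4 and 4207 CPM in WT and 62.4, 85.2 and 235 CPM in α7HMZ liver, and Cyp2c50, of the likewise repetitive Cyp2c cluster, at 1342, 1402 and 1546 CPM in WT and 38.9, 43.3 and 61.5 CPM in α7HMZ liver. Their log2 fold changes were -5.29 (standard error 0.59, adjusted p = 5.52e-06) and -4.90 (standard error 0.25, adjusted p = 1.81e-10), both groups being far apart. Scnn1a, a subunit of the epithelial sodium channel, stood at 38.7, 36.5 and 34.5 CPM in WT and 1.47, 1.35 and 1.09 CPM in α7HMZ liver. For Scnn1a the log2 fold change was -4.83 (standard error 0.18, adjusted p = 4.61e-12), and the time difference was -0.02 (standard error 0.25, adjusted p = 0.972). Of 24 male-biased liver genes, 1 was higher and 13 lower at 10:30 with a median of -0.84. Of 25 female-biased genes 9 were higher and none lower, with a median of 0.58. Over all genes 8.47% were higher and 9.06% lower. None of these sex-biased genes was particular to 10:30.

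Of 38 xenobiotic P450 genes, 5 were higher and 18 lower at 10:30, with Por as the 1 gene particular to 10:30 (higher, beside 1.79% of all genes). Lists with few calls were the unfolded protein and integrated stress response (2 higher and 1 lower of 30), interferon response (2 and 1 of 31), cell cycle (1 and none of 26) and fetal liver genes (1 and 1 of 13). Over all genes 8.47% were higher and 9.06% lower at 10:30. Within 10 Mb of Hnf4a on chromosome 2, where a passenger interval of the strain that carried the allele could lie, 39 of 167 genes tested were called at 10:30 (23.4%, against 17.5% of all genes) and 12 were particular to 10:30 (7.19%, against 3.43%). The part of strain differences at that interval was not tested.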

How the data were processed

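Per the authors' methods, poly(A) RNA of single livers was made into unstranded TruSeq libraries and sequenced as 75-bp single-end reads on an Illumina NextSeq, aligned to mm10 with TopHat2 2.1.1 and counted per gene with HTSeq 0.6.1. The deposited raw counts of the 24 libraries were used, and the deposited FPKM files were not. Antisense partners share reads with their gene here. The row of Rn45s was dropped, low genes were removed by filterByExpr, and TMM factors, a quasi-likelihood fit (edgeR 4.0.16, R 4.3.3) over the 18 fed libraries of 6 groups and Benjamini-Hochberg adjustment followed, with 0.05 as the threshold. The 13240 genes tested each had their spread estimated over all 6 groups. Positions and lengths came from a GRCm38 annotation and sequences from RefSeq. The scripts were tested on simulated data. Named genes were Hnf4a, the largest 15 each way at 10:30 and among genes particular to it (mean log2 CPM of at least 1, no overlap of the genotypes), the 2 most abundant markers of each cell type, for each list the 4 with the smallest p at 10:30 and the 2 with the smallest p of the difference, all core clock genes and 11 genes that the study discusses, of which those that add nothing were left out; a few results are not reported here. The members, lists and rules were chosen with earlier results of these data known. Alternatives were other scalings, offsets, filters, DESeq2 1.42.0, a replicate block and leaving out libraries.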

Additional observations from a re-analysis of the deposited data

Results flagged for a closer look

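For each gene below, the genotype difference at 10:30 differed from the mean of those at 13:30 and 20:30 by edgeR's quasi-likelihood test of the difference itself, over all genes tested, and the value given is that difference on the log2 scale. Among the chaperones it was positive for Hspa1a (2.47), Hspa1b (2.45), Hsph1 (1.62) and Dnajb1 (1.24), among clock, output and hormone response genes for Dbp (2.02), Alas1 (3.59), Usp2 (2.15), Pfkfb3 (2.04), Fkbp5 (1.25) and Mt1 (2.23), in the ribosome and its assembly for Rplp2 (0.89), Rrs1 (1.22) and Gar1 (1.505), and among other genes for Foxa3 (1.29), Jun (1.30), Plin4 (2.26) and Kbtbd8 (1.82). It was negative for the secretory and metabolic genes Apob (-0.87), Cps1 (-0.80), F5 (-0.78), Sc5d (-1.02), Acly (-1.25) and Pygl (-0.70), for receptors and the junction gene Erbb3 (-1.36), Met (-0.81) and Cldn1 (-1.74), and for Corin (-4.23), Srgap3 (-2.05), Rab36 (-1.81), Tnfaip2 (-1.74) and Bcl6 (-4.33). The value of Bcl6 rests on WT replicate 1 of 10:30. These genes were picked for the text partly by this test, so their number says nothing about how many such genes there are.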

How the results depend on the processing

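Counts are given as genes higher and genes lower in α7HMZ liver. The test against a change of 1.2-fold called 398 and 653 at 10:30, 25 and 33 for the time difference, and 19 and 19 particular to 10:30. A fit to the 10:30 libraries alone called 558 higher. DESeq2 called 718 and 623 for the time difference and 385 and 347 particular to 10:30. The difference from 13:30 alone called 150 and 154, with 97 and 100 particular. Without the 4 fed libraries highest in Rn45s, Krt19 or Ctrb1 (α7HMZ replicate 1 at 10:30, WT replicate 2 and α7HMZ replicates 1 and 3 at 20:30), 781 were lower for the time difference, and 356 and 508 were particular to 10:30. Leaving out 1 library at a time gave 514 to 1253 higher and 868 to 1437 lower at 10:30, 39 to 953 and 47 to 945 for the difference, and 28 to 589 and 33 to 555 particular to 10:30; fewer mice were fitted in each, and other causes were not tested.

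By library, the genes particular to 10:30 were 40 and 33 without WT replicate 1, 28 and 35 without WT replicate 2, 96 and 134 without WT replicate 3, 91 and 66 without α7HMZ replicate 2 and 117 and 105 without α7HMZ replicate 3 of 10:30, and 153 and 142 without WT replicate 3 of 13:30. The log2 fold change of Bcl6 at 10:30 ranged from -2.87 (without WT replicate 3) to 0.16 (without WT replicate 1). The replicate numbers did not pair the mice (correlations of 0.17, -0.17 and 0.088 at 10:30). With the replicate block, 1002 genes were higher and 1136 lower at 10:30, and 191 and 178 were particular to it. Over the named genes, the settings that did not leave out a single library gave 1159 values with the call kept, 4 that gained and 64 that lost it, of which the test against 1.2-fold took 24. In a fit to the 10:30 libraries alone, Alas1 (adjusted p = 0.0557), Mt1 (0.0608), Nfil3 (0.0619) and Dbp (0.152) were no longer called, DESeq2 did not call Corin (0.0939), and Cdh1 (0.062), Src (0.0508) and the time difference of Apob (0.0503) were lost in a fit to all 24 libraries. The replicate block ended the calls of Cdh1 (0.0607) and Bcl6 (0.106) at 10:30.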
